A study of Mus musculus with 4 samples.

Results

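Lcn2, Saa3, Hp, Lrg1 and Serpina3n are 5 of the 19465 genes counted in these sections and encode secreted proteins of the acute-phase response. They were taken by symbol, with earlier results of these data known. In this response, interleukin 6 and interleukin 1 act through STAT3, NF-kB and C/EBP factors to raise a set of plasma proteins, most of them made by the liver. Some members of the set are also made outside the liver, by neutrophils, macrophages, fibroblasts and epithelia, and the 5 genes here are of that kind. Lcn2 encodes lipocalin 2, a carrier of bacterial iron chelators that is stored in neutrophil granules. Saa3 encodes serum amyloid A3, the form of serum amyloid A made mainly outside the liver. Hp encodes haptoglobin, which binds free haemoglobin. Lrg1 encodes leucine-rich alpha-2-glycoprotein 1, a neutrophil granule and plasma protein that acts on TGF-beta signalling in vessels. Serpina3n encodes an inhibitor of serine proteases.

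Primary tumour and lung of the same 2 animals were compared, 1 section of each organ being taken from each mouse (n = 2 sections per tissue). All of the animals were BALB/c mice that received 100000 4T1 cells in the mammary fat pad at 8 weeks of age and were killed 28 days later. 4T1 is a transplantable mammary carcinoma line of this strain, whose cells seed the lung, and no lung of an animal without 4T1 cells was part of the data. Tissue was fixed, embedded in paraffin and profiled by the Visium assay, in which pairs of gene-specific probes are captured on printed spots and counted as unique molecular identifiers (UMIs), so that each spot holds RNA from several cells.

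Of 9445 spots under tissue, the 9339 with more than 200 detected genes were kept, with 10890154 to 30240176 UMIs in a section and a median of 1820 to 9175 UMIs in a spot. Barcodes mark positions on the slide, so 1341 of the 3401 barcodes occurred in all 4 sections. The names of the tissues were borne out by alveolar markers. Each of the 11 alveolar markers counted stood below 15 CPM (UMIs scaled to 1000000 in the section) in both primary tumours and above 11 CPM in both lungs, where they summed to 13761 and 7777 CPM. A list of 7 tumour markers was also summed (Csf3, Mmp3, Mmp10, Mmp13, Plau, Hmga2 and Inhba). It was chosen with earlier results of these data known, so its level is no check of the names. The sum was 4424 and 5134 CPM in the primary tumours of mouse A and mouse B. In the lung it was 99.3 CPM in mouse A and 1144 CPM in mouse B. In the lung of mouse A, 1148 of the 1697 spots held no UMI of these genes. UMIs of odorant and pheromone receptor genes, which neither tissue should transcribe, give the background of a gene, and their 95th percentile was 1.70 and 19.0 CPM in the primary tumours of mouse A and mouse B and 0.539 and 0.397 CPM in the lungs.

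In the GRCm38 build (mm10), the build of the files, Lcn2 (ENSMUSG00000026822) lies at chr2:32384633-32388252, Saa3 (ENSMUSG00000040026) at chr7:46711998-46715700, Hp (ENSMUSG00000031722) at chr8:109575128-109579172 and Lrg1 (ENSMUSG00000037095) at chr17:56119678-56122001, all on the minus strand, while Serpina3n (ENSMUSG00000021091) lies at chr12:104406729-104414329 on the plus strand. The counts join all annotated transcripts of a gene, from 1 for Lrg1 and Serpina3n to 6 for Lcn2. Since Lcn2, Saa3 and Lrg1 followed one another most closely over the spots of the lungs, the bases upstream of their RefSeq starts (GRCm38.p6) were read. Those of Lcn2 lie inside the gene span given above, which reaches further upstream than its RefSeq start. The stretches shown leave out every exon annotated in GENCODE, run 5′ to 3′ on the strand of the gene, and hold matches to NF-kB or C/EBP letters in capitals.
Lcn2, chr2:32387798-32387850, minus strand, 111 to 59 bases upstream: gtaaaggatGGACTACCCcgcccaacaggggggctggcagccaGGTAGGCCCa
Saa3, chr7:46715701-46715926, minus strand, 250 to 25 bases upstream: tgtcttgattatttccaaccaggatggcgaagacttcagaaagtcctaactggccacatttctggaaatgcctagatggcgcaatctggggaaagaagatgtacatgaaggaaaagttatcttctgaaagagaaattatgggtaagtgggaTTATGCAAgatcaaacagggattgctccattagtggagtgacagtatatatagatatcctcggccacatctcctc
Lrg1, chr17:56122002-56122196, minus strand, 250 to 56 bases upstream: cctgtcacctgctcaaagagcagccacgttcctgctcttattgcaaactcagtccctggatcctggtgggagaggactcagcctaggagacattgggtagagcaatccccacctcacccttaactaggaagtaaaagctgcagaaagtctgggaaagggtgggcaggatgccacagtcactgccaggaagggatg

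In the 250 bases before the start, 4 of the 5 members had a RefSeq sequence (Lcn2, Saa3, Lrg1 and Serpina3n). Both strands were searched for the STAT letters TTCNNNGAA, for NF-kB letters in 3 overlapping forms (GGGNNTTCC, GGGNNNTCC and GGGNNTNCC) and for the C/EBP letters TTGCNNAA and TTNCGNAA. Lcn2 held 3 NF-kB matches and 1 C/EBP match, and Saa3 held 1 C/EBP match, TTATGCAA, 99 to 92 bases upstream. The 2 NF-kB matches shown for Lcn2, GGACTACCC and GGTAGGCCC, start 102 and 68 bases upstream and are read on the opposite strand. No letters of the 3 kinds were found in this window of Lrg1 or Serpina3n, and no STAT letters in any of the 4. Of 32851 mouse promoters of the same length, 22.1% held an NF-kB match, 10.8% a C/EBP match and 7.02% a STAT match. A match describes letters only, and binding was not measured.

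Lcn2 was counted in 77.7% of spots or more in each section, and its levels overlapped between the tissues. Its level was 1544 CPM in the tumour of mouse A, 2778 CPM in that of mouse B, 3770 CPM in the lung of mouse A and 1606 CPM in the lung of mouse B. The primary tumour of mouse B thus lay between the lungs. Saa3 stood at 178 and 659 CPM in the primary tumours of mouse A and mouse B and at 877 and 788 CPM in their lungs. The primary tumours thus lay further apart in Saa3 than the lungs did. Lrg1 stood at 63.8 and 124 CPM in the primary tumours and at 1922 and 1134 CPM in the lungs. Hp was counted at 11.5 and 39.6 CPM in the primary tumours and at 438 and 154 CPM in the lungs. Serpina3n was nearly absent from the primary tumours, with 33 and 25 UMIs in all or 2.44 and 2.30 CPM, and stood at 79.3 and 147 CPM in the lungs. The value of Serpina3n in the primary tumour of mouse B lies below the 95th percentile of the receptor genes there, and that in mouse A just above it, so that Serpina3n was not separated from background in that of mouse B. Hp lay above the percentile in both. Levels of different genes are not set against each other, because genes differ in their numbers of probe pairs.

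**Figure D1:**
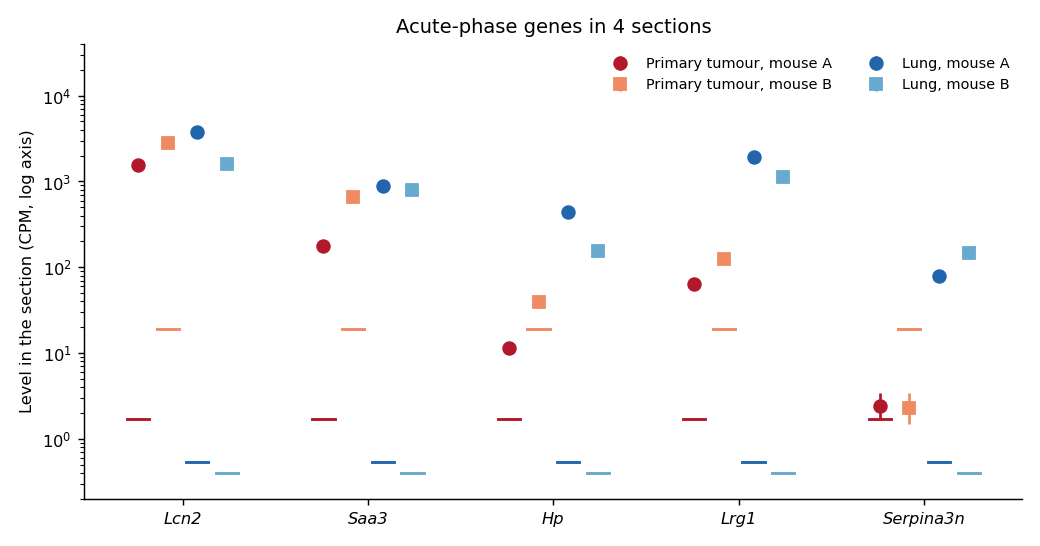
Level of each gene in each section, in CPM on a log axis; circles are mouse A and squares mouse B, bars through the symbols are 95% Poisson intervals of the count (mostly smaller than the symbol), and the short lines mark the 95th percentile of receptor genes in the same section. Saa3, Lrg1, Hp and Serpina3n lie higher in both lungs than in either primary tumour, while the sections overlap for Lcn2.

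Summed over spots and fitted across 15267 genes with edgeR (quasi-likelihood test, p adjusted by Benjamini-Hochberg), 3 of the 5 genes were higher in the lung, where 7.46% of all genes tested were called in either direction. Serpina3n was higher with a fitted log2 difference of 5.83 ± 0.46 (SE, adjusted p = 0.000879), whose size is uncertain because it rests on 33 and 25 UMIs in the primary tumours, at or near background. Lrg1 rose by 4.38 ± 0.61 on the log2 scale (adjusted p = 0.00596) and Hp by 3.93 ± 0.73 (adjusted p = 0.0149). All 3, and Saa3 as well, lay above both primary tumours in both lungs. The difference was 1.33 ± 0.59 for Saa3 (adjusted p = 0.216) and 0.69 ± 0.62 for Lcn2 (adjusted p = 0.572), neither past the threshold of 0.05. DESeq2 called Saa3 as well (log2 difference 1.52, adjusted p = 0.0296), among 3827 of 19314 genes called, and without TMM scaling, which moved the median of all genes to -0.31, Hp was no longer called (log2 difference 3.51, adjusted p = 0.0656). Without the lung of mouse A the difference of Lcn2 turned to -0.07, and with the mouse as a block 1817 genes in place of 1139 were called, the same 3 of the 5 members among them. Neutrophil markers differed in the same direction: the 10 of them summed to 2681 and 11585 CPM in the primary tumours and to 83664 and 33940 CPM in the lungs. Airway markers did so too, at 2.36 and 24.5 against 1632 and 1057 CPM, with 5 of the 6 tested called higher. Endothelial markers stood at 211 and 148 against 842 to 1767 CPM, with 6 of 6 called higher. The part of these cells in the differences of the members was not tested. Because spots and sections mix cells, fewer cells of a type and less RNA per cell cannot be told apart.

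Within each section, spots were ordered by the share of their UMIs on the 10 neutrophil markers (among them S100a8, S100a9, Ly6g and Cxcr2). Rank correlations over spots describe these relations, and the values of a spot share its depth and its neighbours. Lcn2 followed the neutrophil share with a Spearman rho of 0.21 and 0.30 over the 2490 and 2372 spots of the primary tumours of mouse A and mouse B, of 0.58 over the 1697 spots of the lung of mouse A and of 0.89 over the 2780 spots of the lung of mouse B. For Saa3 the rho was 0.25, 0.56, 0.39 and 0.86 in the same order of sections. For Lrg1 it was near 0 in the tumour of mouse A (-0.02), 0.13 in that of mouse B, and 0.44 and 0.87 in the lungs. With each spot thinned to 1000 UMIs, the rho of Lcn2, Saa3 and Lrg1 was 0.30, 0.21 and 0.19 in the lung of mouse A and 0.68, 0.60 and 0.62 in that of mouse B. These 3 genes were thus most closely tied to neutrophil markers in the lung of mouse B. Hp reached 0.42 there and was at -0.02 in the lung of mouse A. Serpina3n was at 0.22 in the lung of mouse B and at -0.18 in the lung of mouse A. In the lung of mouse B both were lower with thinned spots, Hp at 0.17 and Serpina3n at 0.09, and their partial rho with the other 2 shares and depth held was 0.10 and -0.08.

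**Figure D2:**
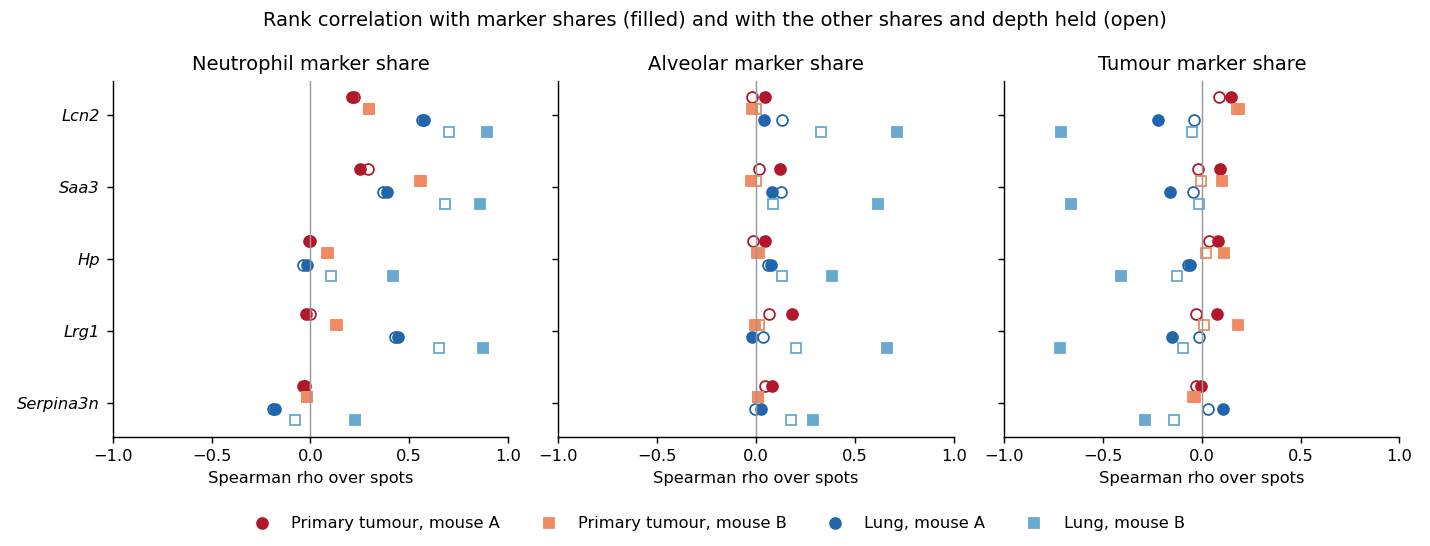
Spearman rho over spots between the CPM of each gene and the share of UMIs on neutrophil, alveolar and tumour markers, with 1 symbol per section; open symbols are partial correlations that hold the other 2 shares and the total UMIs of the spot. In the lung of mouse B, the rho of Lcn2, Saa3 and Lrg1 with the tumour share lies between -0.72 and -0.66, and their partial values lie between -0.10 and -0.01.

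The shares themselves were tied to each other in the lung of mouse B, where the neutrophil share had a rho of -0.77 with the tumour share and of 0.67 with the alveolar share. With the other 2 shares and depth held, Lcn2 kept a partial rho of 0.70 with the neutrophil share in that section, Saa3 of 0.68 and Lrg1 of 0.65. The partial rho with the alveolar share was lower for each of them, at 0.33, 0.09 and 0.20. In the lung of mouse A, where tumour markers were scarce, the rho of the members with the alveolar share lay between -0.02 and 0.08.

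The lowest and highest quartile of spots by neutrophil share were then summed per section and compared with the section as a block. In the lung of mouse B, Lcn2 stood at 354 CPM in the low and at 3604 CPM in the high quartile, a 10.2-fold difference, against 2611 and 4510 CPM in the lung of mouse A, a 1.73-fold difference. Saa3 differed 12.3-fold and 1.79-fold in the same sections, and Lrg1 9.38-fold and 1.62-fold. Hp and Serpina3n went opposite ways in the mice. Hp stood at 37.6 CPM in the low and at 253 CPM in the high quartile of mouse B but at 479 and 402 CPM in mouse A. Serpina3n did likewise, with 49.8 CPM in the low and 175 CPM in the high quartile of mouse B but 137 and 43.2 CPM in mouse A. Airway markers went from 455 to 572 CPM in mouse B and from 4196 to 472 CPM in mouse A. Fibroblast markers fell in both, from 2255 to 829 CPM and from 1625 to 502 CPM. The mean depth of a spot went from 16716 to 7269 UMIs in mouse B and from 6761 to 7299 UMIs in mouse A. The part of these cells and of depth in the differences was not tested. None of the 5 genes and 0 of the 12217 genes tested (0%) passed the threshold, while 2748 genes had an unadjusted p under 0.05. The edgeR estimates were 2.39 ± 0.99 for Lcn2 (adjusted p = 0.223), 2.55 ± 0.86 for Saa3 (adjusted p = 0.17), 2.28 ± 0.89 for Lrg1 (adjusted p = 0.202), 1.56 ± 0.79 for Hp (adjusted p = 0.291) and 0.42 ± 0.85 for Serpina3n (adjusted p = 0.795). DESeq2 called 896 of 18589 genes in this comparison, and Lcn2, Saa3 and Lrg1 were among them with adjusted p of 0.00234, 0.00171 and 0.00368.

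**Figure D3:**
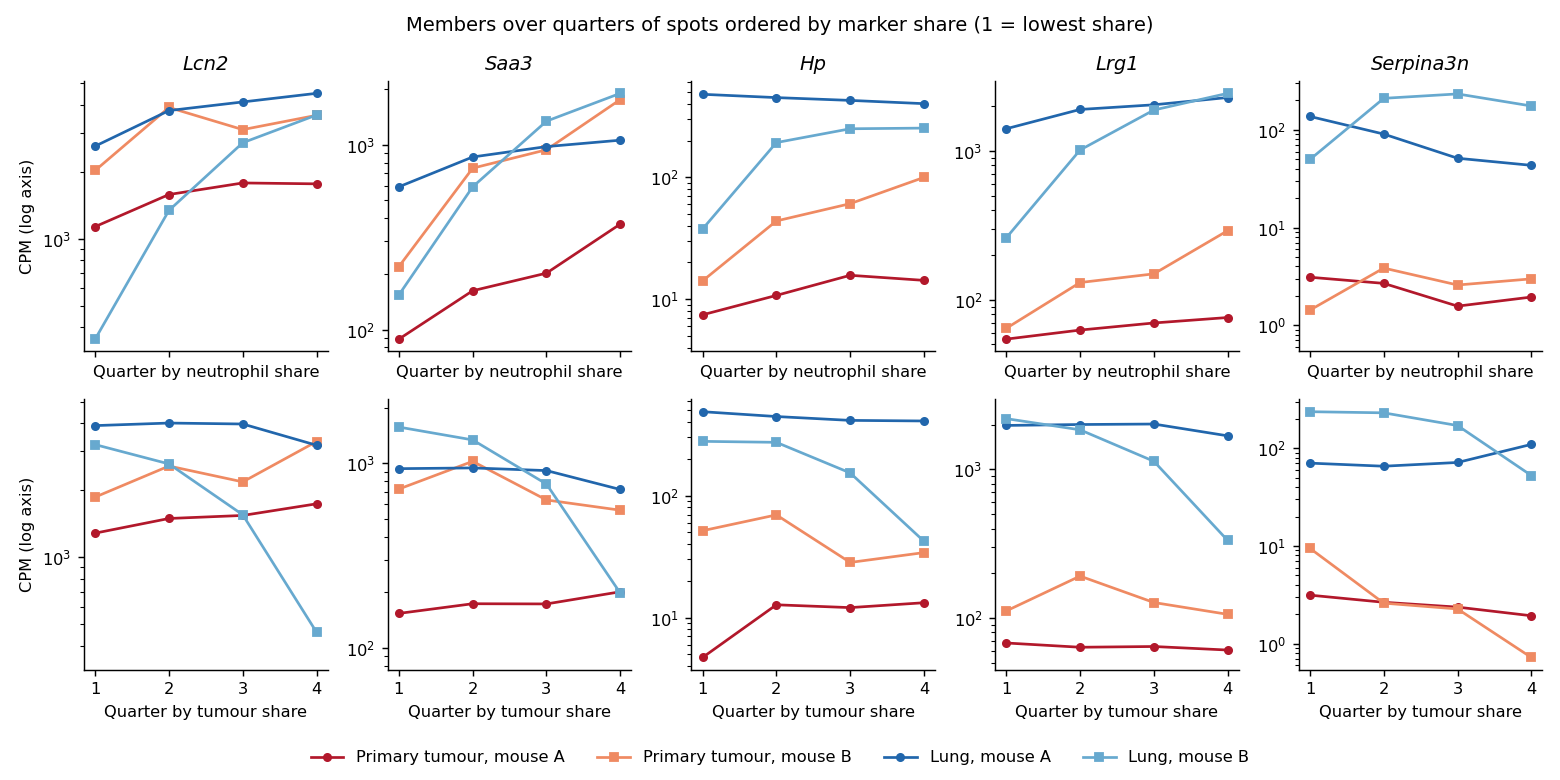
CPM of each gene, on a log axis, over 4 equal groups of spots ordered from the lowest (1) to the highest (4) neutrophil share in the upper row and tumour share in the lower row; each line is 1 section. Lcn2 in the lung of mouse B runs from 354 to 3604 CPM over the neutrophil groups, while in the primary tumours it starts at 1135 and 2030 CPM where neutrophil markers are lowest.

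In the primary tumour, 3 of the 4 members tested were higher in the neutrophil-rich quartile, where 5.48% of the 13825 genes tested were called in either direction. Saa3 rose by 2.51 ± 0.42 on the log2 scale (edgeR, adjusted p = 2.22e-07), from 88.8 to 373 CPM in mouse A and from 219 to 1758 CPM in mouse B. Hp rose by 2.15 ± 0.29 (adjusted p = 2.15e-11), from 7.45 to 14.3 CPM in mouse A and from 14.1 to 99.8 CPM in mouse B. Lrg1 rose by 1.35 ± 0.30 (adjusted p = 0.000469), from 54.3 to 75.9 CPM in mouse A and from 64.2 to 292 CPM in mouse B. The counts behind Hp in mouse A were 24 and 22 UMIs. Serpina3n was too low to be tested. Lcn2 stood at 1135 and 1767 CPM in mouse A and at 2030 and 3594 CPM in mouse B, a difference of 0.70 ± 0.49 (adjusted p = 0.454).

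Other markers and background moved with these classes as well. Macrophage markers summed to 2605 CPM in the poor and 1595 CPM in the rich quartile of mouse A and to 603 and 311 CPM in those of mouse B, with 4 of the 7 called lower. Keratinocyte markers stood at 301 and 42.8 CPM in mouse A and at 41.0 and 81.8 CPM in mouse B. Spots of the neutrophil-poor quartile held a mean of 5172 and 9430 UMIs in mouse A and mouse B and those of the rich quartile 2475 and 2823 UMIs. The medians had the opposite order, with 672 and 1763 UMIs in the poor quartile and 1634 and 2099 UMIs in the rich one. The CPM of the receptor genes was 7.34-fold and 2.97-fold higher in the rich quartile and that of the 8 hepatocyte markers 3.99-fold and 2.69-fold. After each spot was thinned to 1000 UMIs, which left out 886 and 56 shallower spots, the receptor genes had a ratio of 5.46 in mouse A and of 0.81 in mouse B. The ratio of Saa3 was 3.09 and 5.68, that of Lrg1 1.50 and 3.34 and that of Hp 3.57, from 3 and 9 UMIs, and 3.29. With thinned spots, Lcn2 was called as well (log2 difference 0.74 ± 0.13, adjusted p = 8.00e-06), and all 4 members tested were higher, among 268 of 10727 genes called. Without the block no member and no gene was called, and DESeq2 called 1 member, Saa3, among 125 of 19199 genes. The part of background and of these cells in the differences was not tested further.

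Whether the neutrophil difference itself differed between lung and primary tumour was tested by an interaction term. No member was called among 16584 genes, of which 0.00603% passed. The interaction of Lcn2 was 1.90 ± 0.93 on the log2 scale (adjusted p = 0.442).

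Lcn2 in the primary tumours was also counted where neutrophil markers were few. In the lowest quartile of spots by neutrophil share, which held less Lcn2 than the other quartiles, it stood at 1135 CPM in mouse A, where the summed neutrophil markers were at 747 CPM, and at 2030 CPM in mouse B, where they were at 3459 CPM. The lowest quartile of the lung of mouse B, with the markers at 4893 CPM, held 354 CPM of Lcn2. Per 1000 UMIs of S100a8 and S100a9, the main cytosolic proteins of neutrophils, the primary tumours held 655 and 272 UMIs of Lcn2 and the lungs 56.1 and 60.1. The lungs of the mice thus differed little in this ratio, and each primary tumour lay above both. For Saa3 the ratios were 75.5 and 64.5 in the primary tumours and 13.0 and 29.5 in the lungs. The ratios of Lrg1 were 27.1 and 12.1 in the primary tumours and 28.6 and 42.5 in the lungs. The lung of mouse A thus lay just above the primary tumour of mouse A. Per 1000 UMIs of all 10 neutrophil markers, Lrg1 overlapped between the tissues, at 23.8 and 10.7 against 23.0 and 33.4. Hp and Serpina3n also had higher ratios in both lungs than in either primary tumour. Hp was at 4.89 and 3.87 against 6.52 and 5.78, and Serpina3n at 1.03 and 0.225 against 1.18 and 5.51. For these genes the direction depended on the reference. Per 1000 UMIs of the 6 neutrophil granule markers, Hp was at 307 and 149 in the primary tumours and 45.9 and 42.2 in the lungs. Lrg1 was then at 1699 and 467 against 201 and 310, while Serpina3n overlapped, at 65.0 and 8.65 against 8.31 and 40.3. Lcn2 and Saa3 stayed higher in both primary tumours. The granule markers summed to 37.5 and 265 CPM in the primary tumours. With 2 sections per tissue an exact permutation test cannot give a two-sided p below 0.333, and no other test of these ratios was made.

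**Figure D4:**
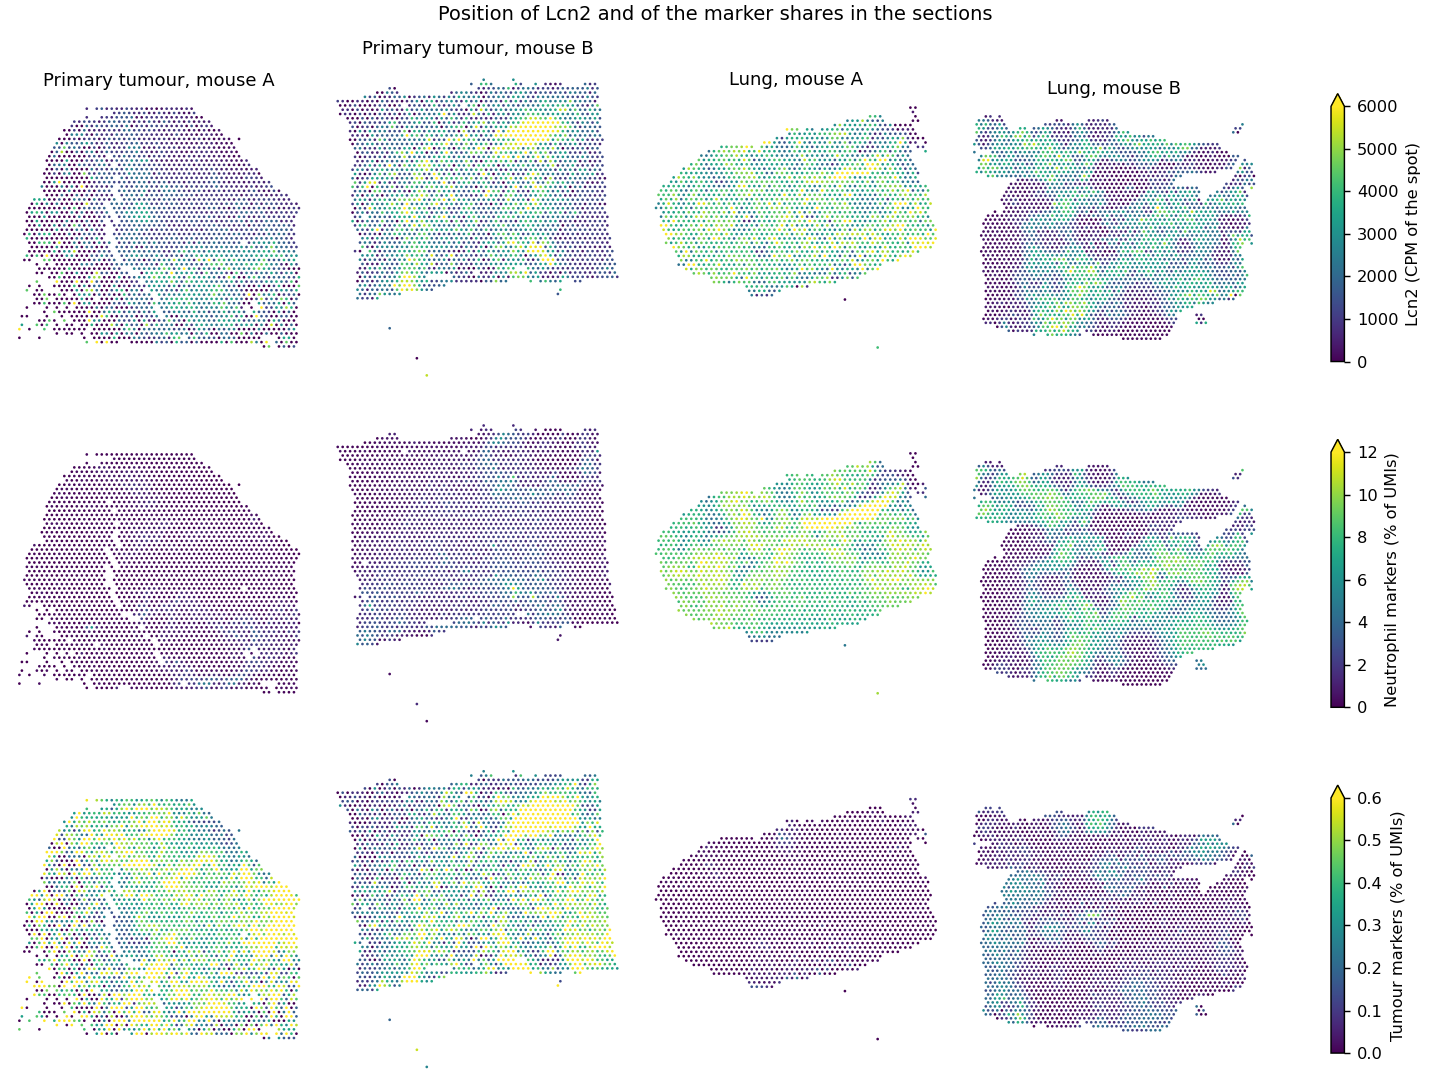
Position of the spots of each section, coloured by the CPM of Lcn2 in the spot (upper row, the scale is cut at its upper end), by the share of UMIs on neutrophil markers (middle row) and by the share on tumour markers (lower row). In the primary tumour of mouse B, a patch with high Lcn2 lies over a patch with a high tumour share, whereas in the lung of mouse B the Lcn2-rich spots follow the neutrophil-rich ones.

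The spots with the most Lcn2 lay in the primary tumour of mouse B. Its 20 highest spots held 187 to 543 UMIs of Lcn2 each, together 17.2% of the Lcn2 UMIs of the section in 6.03% of all its UMIs. They were deep spots, with a median of 32956 UMIs against 1820 over the section, and the tumour share itself had a rho of 0.47 with depth there. These spots were chosen by Lcn2 and are described without a test. Their median tumour share was 0.968% against 0.318% over the section, and their median neutrophil share 0.987% against 1.43%. Of the spots ordered by tumour share alone, the highest 5% held 5212 CPM of Lcn2 in mouse B against 2212 CPM in all other spots, and 2093 against 1524 CPM in mouse A. Saa3, Hp and Lrg1 showed no such difference in mouse B, with 639 against 663 CPM, 38.4 against 39.8 CPM and 114 against 126 CPM. Depth also differed, since these spots held a median of 13740 UMIs in mouse B and 517 UMIs in mouse A. Over all spots the rho of Lcn2 with the tumour share was 0.15 and 0.19 (0.07 and 0.15 with thinned spots), and Lcn2 in neighbouring spots was alike, with a rho of 0.46 and 0.59.

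Between the lowest and highest quartile of spots by tumour share, Lcn2 stood at 1280 and 1733 CPM in the tumour of mouse A and at 1862 and 3313 CPM in that of mouse B, higher in the tumour-rich spots of both. With thinned spots the ratio was 1.11 and 1.38. The receptor genes summed to 1252 and 846 CPM in the poor and rich quartile of mouse A and to 25876 and 3934 CPM in those of mouse B. Keratinocyte markers were lower in the tumour-rich quartile, at 512 against 35.9 CPM in mouse A and 114 against 39.9 CPM in mouse B, and macrophage markers went from 2669 to 1605 CPM in mouse A and from 398 to 464 CPM in mouse B. The 5% of spots richest in keratinocyte markers held 441 CPM of Lcn2 against 1594 CPM elsewhere in mouse A and 2304 against 2785 CPM in mouse B. The part of background and of these cells in the difference was not tested. The edgeR estimate was 0.76 ± 0.74 (adjusted p = 0.727), and 0 of the 4 members tested were called, against 0.973% of all genes. At an unadjusted p under 0.05 there were 1030 genes in this comparison, and DESeq2 called 2 genes, no member among them. Saa3 went opposite ways in the mice (from 153 to 200 CPM and from 725 to 557 CPM), as did Hp.

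In the lung the relation to the tumour share went the other way. In mouse B, Lcn2 stood at 3209 CPM in the tumour-poor and at 460 CPM in the tumour-rich quartile, Saa3 at 1569 and 198 CPM, Lrg1 at 2197 and 333 CPM, Hp at 279 and 42.2 CPM and Serpina3n at 236 and 52.5 CPM. All 5 genes were thus lower where tumour markers were richer. Other markers moved between these quartiles too. Neutrophil markers fell from 72101 to 7135 CPM, alveolar markers from 12942 to 2955 CPM and airway markers from 2143 to 193 CPM, while macrophage markers rose from 648 to 1456 CPM. The mean depth of a spot rose from 6847 to 16867 UMIs. The part of these cells and of depth in the differences was not tested. In mouse A, the low class was the spots without a UMI of a tumour marker, the tumour-rich quartile began at a share of 0.0128%, and Lcn2 stood at 3989 and 3191 CPM in the low and high class. Serpina3n was there the exception, with 69.3 and 109 CPM. By edgeR, 0 of the 5 members were called against 0.597% of 12892 genes, with estimates from -1.80 ± 0.74 for Saa3 (adjusted p = 0.205) to -0.88 ± 0.57 for Serpina3n (adjusted p = 0.424). The unadjusted p was under 0.05 for 2378 genes, Saa3 and Hp among them. DESeq2 called Lcn2 and Saa3 lower (adjusted p = 0.0494 and 0.0463) among 125 of 18752 genes called. After thinning to 1000 UMIs the classes were no longer quartiles but spots without and with a UMI of a tumour marker. They held 1554 and 133 spots in mouse A and 1434 and 1341 in mouse B. Between them edgeR called all 5 members lower, with log2 differences of -0.82 to -0.66 and adjusted p of 0.0113 to 0.0495. In all, 811 of 10941 genes were called. Serpina3n rested there on 119 and 6 UMIs in mouse A.

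Between these quartiles, with spots at full depth, Lcn2 was higher with tumour share in both primary tumours and lower in both lungs, and none of the other 4 genes was. Thinning to 1000 UMIs left classes of unequal size, such as 1554 and 133 spots in the lung of mouse A. Between those classes Lrg1 had the same pattern, with ratios of 1.31 and 1.31 in the primary tumours and of 0.82 and 0.55 in the lungs. The ratio in the primary tumour of mouse A rested on 41 and 40 UMIs. The interaction of Lcn2, at full depth, was -2.88 ± 1.40 on the log2 scale, and no member was called (adjusted p = 0.838 for Lcn2), against 0.0183% of 16389 genes. An unadjusted p under 0.05 was found for 952 genes.

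Distance from tumour-rich places was taken in the lung of mouse B, where 929 spots had at least 1000 CPM of tumour markers over the spot and its neighbours (a limit chosen after the data were seen). Lcn2 stood at 565 CPM in those spots, at 1813 CPM 1 spot away, at 2419 CPM 2 spots away, at 2869 CPM 3 to 5 spots away and at 2970 CPM from 6 spots on. Serpina3n stood at 65.6 CPM in the tumour-rich spots, already at 205 CPM 1 spot away, and at 240 CPM from 6 spots on. The summed neutrophil markers ran from 9476 to 67969 CPM over the same steps, and alveolar markers from 3729 to 11245 CPM. The part of these cells in the gradient was not tested. In the lung of mouse A 8 spots met the limit, and Lcn2 stood at 1792 CPM in them and at 2592, 3480, 3501 and 3822 CPM in the same steps outward. Serpina3n had no such order there, with 88.7, 76.7, 152, 93.8 and 76.9 CPM, the first 2 values resting on 5 and 10 UMIs. The tumour-rich spots were deeper, with a median of 15125 UMIs against 7539 to 8250 UMIs in the other groups.

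**Figure D5:**
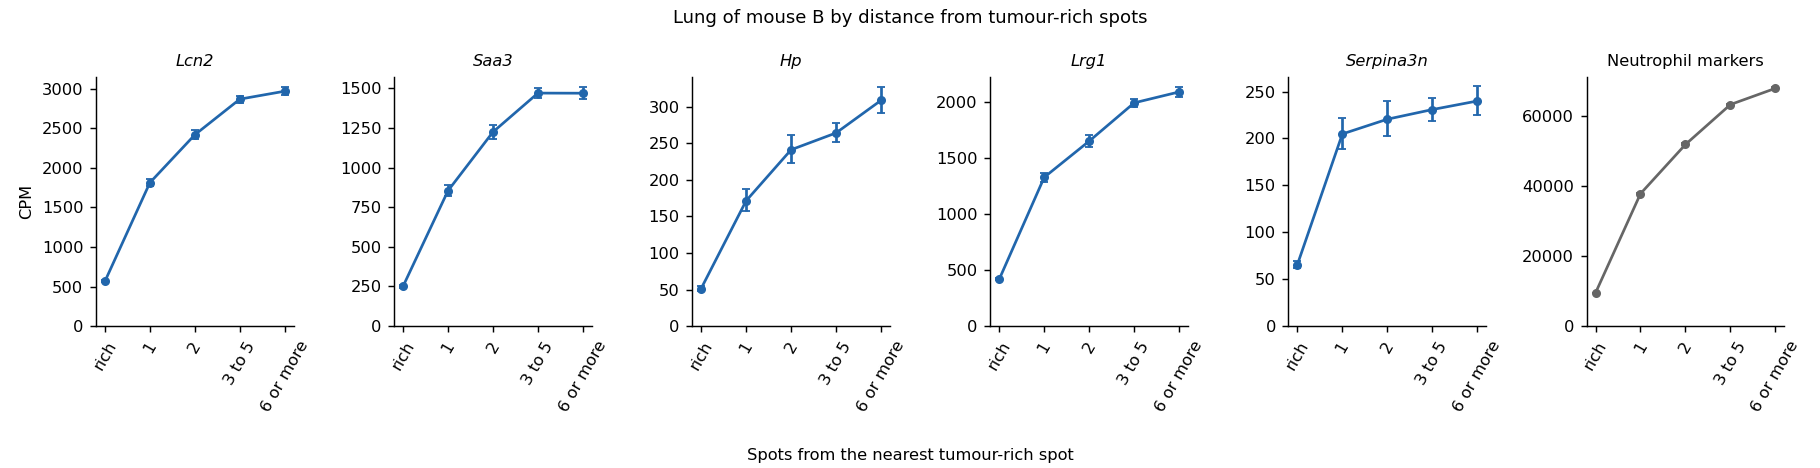
CPM of each gene and of the summed neutrophil markers in the lung of mouse B, by the number of spots from the nearest tumour-rich spot; bars are 95% Poisson intervals, which cover counting error only, and each axis starts at 0. Every panel is lowest in the tumour-rich spots themselves.

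The alveolar share, taken in the lung only, split the 2 mice. In mouse B, Lcn2 stood at 378 CPM in the alveolar-poor and at 2839 CPM in the alveolar-rich quartile, whereas in mouse A the values were 3555 and 3783 CPM. The same held for Saa3 (157 and 1287 CPM against 781 and 873 CPM) and Lrg1 (273 and 1925 CPM against 1897 and 1869 CPM). Between the same quartiles, neutrophil markers went from 5449 to 57234 CPM in mouse B and from 81845 to 80079 CPM in mouse A. Tumour markers fell from 1916 to 456 CPM in mouse B and from 152 to 59.9 CPM in mouse A. The part of these cells in the differences was not tested. None of the 5 members was called by edgeR, and 0 of 12592 genes (0%) passed, with 1235 at an unadjusted p under 0.05. DESeq2 called 50 genes, no member among them.

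Hp and Serpina3n were also read in lung spots rich in other markers. Of the 5% of spots richest in airway markers (Scgb3a2, Foxj1, Cyp2f2 and others), Hp held 662 CPM in mouse A and 626 CPM in mouse B, against 426 and 138 CPM in all other spots. The neutrophil share of these spots was lower than elsewhere, at 4.60% against 8.53% and 3.12% against 4.47%. Lcn2 and Lrg1 were not higher there in mouse A (2293 against 3849 CPM and 1179 against 1962 CPM) and nearly level in mouse B (1628 against 1605 CPM and 1059 against 1137 CPM). Serpina3n was highest in spots rich in fibroblast markers (Col1a1, Dcn, Lum and others), with 194 CPM against 73.4 CPM elsewhere in mouse A and 609 against 131 CPM in mouse B. Their neutrophil share was lower too, at 4.47% against 8.54% and 2.14% against 4.52%. Spots rich in cardiac muscle markers, present at the edge of pulmonary veins in the mouse, held 174 CPM of Serpina3n against 74.7 CPM in mouse A and 494 against 135 CPM in mouse B. Airway-rich spots held 80.8 CPM against 79.2 CPM in mouse A and 359 against 140.0 CPM in mouse B. Spots rich in alveolar markers held 162 CPM against 74.5 CPM in mouse A and 305 against 139.5 CPM in mouse B. Those rich in tumour markers held 158 against 75.5 CPM in mouse A but 46.7 against 155 CPM in mouse B. Those rich in endothelial markers held 57.6 against 80.1 CPM in mouse A and 274 against 143 CPM in mouse B. Serpina3n was thus not confined to 1 kind of spot. These spots were picked by markers and each lung gives 1 value, so the values are descriptions without a test.

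When spots of the lung of mouse B were divided at the medians of neutrophil and tumour share, Lcn2 was highest with many neutrophil and few tumour markers (3251 CPM) and lowest with few neutrophil and many tumour markers (639 CPM). Hp and Serpina3n were instead highest in the 277 spots low in both, at 347 and 328 CPM, against 256 and 207 CPM in spots rich in neutrophil and poor in tumour markers. In the lung of mouse A, Hp was again highest in the spots low in both (505 CPM), but Serpina3n was highest with few neutrophil and many tumour markers, at 126 against 108 CPM. Lrg1 in the spots of mouse B low in both stood at 1189 CPM, below the 2223 CPM of the neutrophil-rich ones.

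The genes most alike in pattern were sought among all genes with at least 0.2 UMI per spot, by the lower of the 2 rho of a tissue. In the lung S100a9, S100a8 and Ngp were nearest to Lcn2 (lowest rho 0.56, 0.55 and 0.48) and, in another order, to Lrg1 (0.44 for S100a8, 0.43 for S100a9 and 0.37 for Ngp). S100a9, S100a8 and Wfdc17 were nearest to Saa3 (0.38, 0.37 and 0.33). Hp was nearest to Gabrp, Cyp2f2, a cytochrome of airway club cells, and Atp1b1 (0.21, 0.18 and 0.16), and Serpina3n to Mgp, Mt2, a metallothionein, and Col3a1, a fibrillar collagen (0.23, 0.21 and 0.20). In the primary tumour the nearest to Lcn2 was Fth1, the ferritin heavy chain (0.35), before S100a8 and S100a9 (0.23 and 0.23). Saa3 was nearest to Wfdc17, S100a8 and Msrb1 (0.32, 0.31 and 0.30) and Lrg1 to Itgb2, Chkb and Fah (0.22 each). The values of Hp (Rnf44, Pnpla2 and Jmy, 0.15, 0.14 and 0.13) were low, as its counts were. Among the members, Lcn2 and Lrg1 had a rho of 0.80 in the lung of mouse B and 0.31 in that of mouse A, Lcn2 and Saa3 of 0.80 and 0.27, and Hp and Serpina3n of 0.29 and 0.04.

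Other genes of the response were read from the same fit of lung against primary tumour. Of 30 further acute-phase genes listed, 24 were tested, 4 were higher and 1 was lower in the lung, with a median difference of -0.33 against 0.00 over all genes. Itih4, a plasma protease inhibitor chain, stood at 0.591 and 8.17 CPM in the primary tumours and at 70.1 and 62.8 CPM in the lungs (log2 difference 4.29 ± 0.88, adjusted p = 0.0216). Both values in the primary tumours lie below the 95th percentile of the receptor genes there (1.70 and 19.0 CPM), so the size of the difference is uncertain. Steap4, a metalloreductase, was higher by 3.92 ± 0.79 (adjusted p = 0.0193), and Lbp, the lipopolysaccharide-binding protein, by 3.79 ± 0.58 (adjusted p = 0.00754). Cp, which encodes ceruloplasmin, fell by 2.43 on the log2 scale, from 910 and 913 CPM to 106 and 175 CPM (adjusted p = 0.0127). The 8 hepatocyte markers summed to 4.58 and 53.9 CPM in the primary tumours and to 6.74 and 8.73 CPM in the lungs, and their part in these values was not tested.

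Of 11 inducing cytokines listed 9 were tested and none passed the threshold, with a median difference of -0.79. Csf3, the neutrophil growth factor and also a tumour marker here, stood at 751 and 837 CPM in the primary tumours and at 6.65 and 157 CPM in the lungs (-3.10 ± 1.01, adjusted p = 0.108), and Il1b at 454 and 711 against 774 and 198 CPM (0.13 ± 0.65, adjusted p = 0.937). Of 19 receptors and transcription factors 3 were higher in the lung. They were Csf3r, the receptor of Csf3 and a neutrophil marker (3.28 ± 0.74, adjusted p = 0.0293), Il17ra, an interleukin 17 receptor chain (2.45 ± 0.48, adjusted p = 0.0179), and Cebpd, a C/EBP factor (2.22 ± 0.43, adjusted p = 0.0165). Of 20 receptors, partners and target proteases of the 5 proteins 5 were higher and 1 was lower. All of these list counts stand beside the 7.46% of all genes called in this comparison. Cd36, a scavenger receptor of serum amyloid A, rose by 5.68 ± 0.61 (adjusted p = 0.0032), Prtn3, a neutrophil serine protease, by 3.96 ± 0.79 (adjusted p = 0.0192) and Acvrl1, an endothelial receptor of the TGF-beta family, by 3.84 ± 0.61 (adjusted p = 0.00902). Gzmb, a granzyme, fell by 4.63 on the log2 scale (adjusted p = 0.00615).

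In the neutrophil-rich quartile of the primary tumours, where 5.48% of all genes were called with the section as a block and none without it, 3 of the 9 cytokines tested were higher, Osm by 2.43 ± 0.28 (edgeR, adjusted p = 1.26e-15), Il1b by 2.08 ± 0.44 (adjusted p = 0.000116) and Il1a by 1.43 ± 0.31 (adjusted p = 0.000216). Of the 22 further acute-phase genes tested 4 were higher. Steap4 was higher by 2.09 ± 0.29 (adjusted p = 2.50e-10) and Cd14, the lipopolysaccharide co-receptor, by 1.49 ± 0.31 (adjusted p = 8.80e-05). The other 2, Fgg and Orm1, which are made by hepatocytes, stood at 0.961 to 11.2 CPM in the primary tumours, within the range of the receptor genes in mouse B.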

How the data were processed

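Visium FFPE libraries of 4 sections (2 primary tumours and 2 lungs of the same 2 mice) were used. The deposited count matrices hold UMI counts per probed gene and spot, made by the authors with Space Ranger 2.0.0 (mm10), with no normalization. The 5 members and all marker and pathway lists were chosen with earlier results of these data known. Spots with more than 200 genes were kept, giving 10890154 to 30240176 UMIs per section. CPM is the gene's UMIs scaled to 1000000 UMIs of a section, class or spot, and intervals on it are exact Poisson and cover counting error only. Marker shares are the percent of a spot's UMIs on a marker list. Sections are the replicates. Counts summed per section, or per lowest and highest 25% of spots with the section as a block, were fitted with edgeR 4.0.16 (quasi-likelihood, TMM, filterByExpr, Benjamini-Hochberg over all genes tested, threshold 0.05). Primary tumour and lung come from the same animals, and the low and high class from the same section: deviations from the group means correlated at -0.290 between the tissues of a mouse and at 0.518 to 0.793 between the classes of a section. With 2 animals the p-values speak of these samples only, and the SE of a gene can be smaller than the difference between its mice. DESeq2 1.42.0, no TMM, no filter, classes of 10% of spots, equal marker weights, neighbouring spots and spots thinned to 1000 UMIs were tried as alternatives. The fits were tested on simulated data. Values were computed with Python 3.11.15 and R 4.3.3. Genes named are the 5 members, the 3 genes most alike to each in a tissue, and members of the lists. The genes most alike to Serpina3n in the primary tumour are not reported here. Sftpb, Scgb1a1, Scgb3a1, Actc1, Saa1 and Saa2 were not analysed here.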

Additional observations from a re-analysis of the deposited data

Results flagged for a closer look

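The difference of Lcn2 between spots rich and poor in tumour markers drew attention because it had opposite signs in the tissues. It was higher in tumour-rich spots of both primary tumours and lower in those of both lungs, and the interaction, lung minus primary tumour, was -2.88 ± 1.40 on the log2 scale. With edgeR (quasi-likelihood test, p adjusted by Benjamini-Hochberg) it did not pass the threshold (adjusted p = 0.838, unadjusted p = 0.0388). Neutrophil markers had a rho of -0.77 with the tumour share over the spots of the lung of mouse B, and their part in the difference was not tested.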

How the results depend on the processing

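Between tissues, the count of genes called moved from 1139 to 3827 with DESeq2, 328 without TMM scaling, 2022 without a filter and 1817 with the replicate block, and lay between 883 and 6604 when 1 section was left out. The log2 difference of Lcn2 then ran from -0.07, without the lung of mouse A, to 1.47, and 3 members were called each time. Leaving out a section leaves 1 sample in a tissue, which is assumed to vary like the other tissue's. For the neutrophil share in the lung, DESeq2 called 896 genes and 3 members, and the fit without a filter 1301 genes and 1 member (0 of both otherwise). For the alveolar share, genes called were 50 with DESeq2, 606 without a filter and 80 with thinned spots. For the tumour share in the lung, the 77 genes called became 0 without the block, with classes of 10% and with neighbouring spots, 125 with DESeq2, 397 without a filter, 21 with equal weights and 811 with thinned spots, and the members 2 with DESeq2 and 5 with thinned spots. Thinned spots were split there into those without and with a UMI of a tumour marker, so the classes were not quartiles. For the neutrophil share in the primary tumour, the 758 genes became 0 without the block, 125 with DESeq2, 452 with classes of 10%, 380 with equal weights and 268 with thinned spots, and the members 0 without the block and 1 with DESeq2. For the tumour share in the primary tumour, the 128 genes became 0 without the block, 2 with DESeq2, 22 without a filter, 425 with classes of 10%, 465 with equal weights and 53 with thinned spots. There, members near 0 turned sign: Saa3 to -0.04 (no block), -0.25 (equal weights) and -0.02 (thinned), Hp to -0.02 (no block), -0.82 (classes of 10%), -0.32 (equal weights) and -0.33 (thinned), and Lrg1 to 0.03 (no block), 0.18 (DESeq2), 0.40 (no filter), 0.01 (equal weights), 0.10 (neighbouring spots) and 0.37 (thinned). The cause of these changes was not tested. Within a tissue, leaving out a mouse leaves 1 section and a value with no test. The median rho of the members with the neutrophil share was 0.24 and lay between 0.12 and 0.26 under the alternatives, but single values moved more: with granule markers alone, Saa3 in the primary tumour of mouse B went from 0.56 to 0.13 and Lcn2 in the primary tumours from 0.21 and 0.30 to 0.03 and 0.10. The limit of 1000 CPM for tumour-rich spots was chosen after seeing the data, and with 500 or 2000 CPM Lcn2 differed by -1.61 and -2.17 in place of -2.21 on the log2 scale. Low counts limit the values of Serpina3n in the primary tumours, with 33 and 25 UMIs.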

Other observations

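Spots rich in macrophage markers held less Lcn2 than the rest in each of the 4 sections. The 5% of spots with the highest share of these markers stood at 649 CPM against 1564 CPM elsewhere in the tumour of mouse A and at 1577 against 2836 CPM in that of mouse B. In the lungs the values were 1854 against 3853 CPM in mouse A and 583 against 1703 CPM in mouse B. The neutrophil share of these spots was also lower in each section, at 0.257% against 0.433%, 1.26% against 1.66%, 4.30% against 8.55% and 1.22% against 4.57% in the same order, and its part was not tested. Each section gives 1 value, and no test was made.

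Lcn2 was alike in neighbouring spots, with a rho of 0.47 in the lung of mouse A and 0.88 in that of mouse B. Serpina3n reached 0.23 and 0.55 in the lungs, and stood at 0.11 and -0.03 in the primary tumours, where few of its UMIs were counted.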
